A study of Mus musculus with 2 samples.

Results

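The small leucine-rich proteoglycans are secreted matrix proteins built around tandem leucine-rich repeats, and 9 of their genes are described here: Dcn, Bgn, Aspn, Lum, Omd, Fmod, Prelp, Ogn and Podn. They were found by symbol among the 31053 genes of the count matrices, each matching 1 row. They were picked from this family after Lum and Omd had been seen to be higher in the p47phox-KI library, so the levels and ratios below are a description and no member is tested. Single lung cells of mice were profiled by droplet RNA sequencing in 2 libraries, 1 of p47phox-KI and 1 of wild-type (WT) lungs. Both are of strain C57BL/6 and both are labelled with acute lung injury. p47phox, encoded by Ncf1, is the organising subunit of the phagocyte NADPH oxidase. The change behind the KI name, the cause of the injury, the number of animals per library, their age and their sex are not stated. Lungs were digested with collagenase, stained for viability and the leukocyte antigen CD45.2 and sorted, with a gate that the labels do not state.

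These proteins bind collagen fibrils from the side and set their spacing and thickness, and several carry chondroitin, dermatan or keratan sulfate chains. Decorin, biglycan and asporin form class I of the family, lumican, osteomodulin, fibromodulin and prolargin form class II, osteoglycin belongs to class III and podocan to class V. Soluble decorin and biglycan can also bind growth factors of the TGF-β family and innate receptors. In lung, fibroblasts and mural cells are their usual source.

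The KI library held 43445797 UMIs in 9120 barcodes and the WT library 43376713 UMIs in 10473 barcodes, where a UMI marks 1 captured transcript tag read near its 3′ end. After filters on genes, mitochondrial share and doublets, 6636 KI and 7735 WT cells remained, with medians of 3774.5 and 3307 UMIs. The libraries share 30 barcode sequences, 14 of them among kept cells, and barcodes were kept apart by library. Ncf1 had 162 KI and 182 WT UMIs in kept cells (4.89 and 5.46 CPM, the share of the same cells' UMIs scaled to a common total), which does not check the genotype label, since a tag near the transcript end can lie outside the change. Each genotype is 1 library, so no difference has a replicate check and no p-value is given. Brackets hold exact 95% intervals that cover counting error only.

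The 9 genes lie on 5 chromosomes, and 7 of them stand beside relatives. On chromosome 10, Dcn (ENSMUSG00000019929, 97479609 to 97518143, plus strand, GRCm38) is followed after 46.98 kb by Lum (ENSMUSG00000036446, 97565128 to 97572703, plus strand), with no protein-coding gene between them. On chromosome 13, Aspn (ENSMUSG00000021388, 49544443 to 49567565), Omd (ENSMUSG00000048368, 49582462 to 49592822) and Ogn (ENSMUSG00000021390, 49608046 to 49624501) follow each other on the plus strand, 14.9 and 15.2 kb apart. All 3 overlap Cenpp on the opposite strand, and Cenpp had 4 UMIs in the fibroblast-like cells of each library. Whether the counting used strand is not stated, so reads of opposite genes may not be told apart. On chromosome 1, Prelp (ENSMUSG00000041577, 133910304 to 133921414, minus strand) and Fmod (ENSMUSG00000041559, 134037254 to 134048277, plus strand) are 116 kb apart, and Prelp overlaps the antisense transcript Gm15851. Bgn (ENSMUSG00000031375) is on chromosome X, 73483602 to 73495933, plus strand. Podn (ENSMUSG00000028600) is on chromosome 4, 108014791 to 108096445, minus strand. Podn overlaps Scp2 on the same strand, so its UMIs are uncertain where the counting could split them. Scp2 had 169.9 KI and 207 WT CPM in fibroblast-like cells, above Podn in both.

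The chromosome 13 neighbours are the members whose cell types differ most within 1 locus, as described below, so the 250 bases before the RefSeq start of each are shown (GRCm38.p6, plus strand, 5′ to 3′). Capitals mark matches to the TATA box letters TATAAA on either strand, and overlapping matches run together. Whether any match acts as a TATA box, or bears on the levels, was not tested. Omd is chr13:49582212-49582461, Ogn chr13:49607765-49608014 and Aspn chr13:49544193-49544442.
Omd: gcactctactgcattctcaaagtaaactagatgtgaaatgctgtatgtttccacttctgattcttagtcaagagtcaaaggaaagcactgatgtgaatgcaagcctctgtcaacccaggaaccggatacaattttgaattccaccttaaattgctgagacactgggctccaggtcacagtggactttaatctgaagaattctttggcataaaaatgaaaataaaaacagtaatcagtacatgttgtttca
Ogn: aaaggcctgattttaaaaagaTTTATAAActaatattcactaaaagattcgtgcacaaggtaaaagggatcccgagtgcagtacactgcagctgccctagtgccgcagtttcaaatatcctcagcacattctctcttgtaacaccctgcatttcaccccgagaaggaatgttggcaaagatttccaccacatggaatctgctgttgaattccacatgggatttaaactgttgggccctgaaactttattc
Aspn: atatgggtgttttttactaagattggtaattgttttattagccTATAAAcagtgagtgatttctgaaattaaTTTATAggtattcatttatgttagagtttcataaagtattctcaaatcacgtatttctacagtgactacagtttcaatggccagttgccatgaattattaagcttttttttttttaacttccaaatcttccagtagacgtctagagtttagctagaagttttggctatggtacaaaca
The Omd stretch holds 0 TATAAA matches and the Ogn and Aspn stretches 2 each, the first starting 229 bases before the start in Ogn and 207 before it in Aspn. Of 32851 RefSeq promoters cut to the same 250 bases, 12.4% hold such a match. The AP-1 letters TGANTCA, on either strand, are in 0 of these 3 stretches and in 6.75% of all promoters. RefSeq promoter entries were found for 7 of the 9 members, and not for Dcn and Lum.

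Cells were clustered without the 9 members and the other genes of the family, so no cluster is built on them. Fibroblast-like cells, 1201 KI and 1435 WT, formed 5 clusters, each named here by its leading gene. In this class all 10 fibroblast markers, the list that named it, had a UMI in both libraries, as in endothelial-like and pericyte-like cells. They summed to 10394.3 KI and 8505.7 WT CPM in this class. Pericyte-like cells had 1792 KI and 1508 WT CPM of them, and endothelial-like cells 44.2 KI and 32.6 WT CPM. The Slc7a10 cluster (Slc7a10, Inmt, Scube2, Mfap4, Adra1a) carried 7 of 9 alveolar fibroblast markers in at least 20% of its cells. The Rbp4 cluster (Rbp4, Fgl2, Apod, Cxcl14, Serpinf1) carried 6 of 9 adventitial but also 6 of 9 alveolar markers, and the Ccl11 cluster (Ccl11, Ptx3, Serpinf1, Myoc, Pi16) 8 of 9 adventitial and 4 of 9 alveolar markers. The Cxcl14 cluster (Cxcl14, Pdgfra, Serpina3c, C7, Serpina3n) carried 7 of 9 alveolar and 7 of 9 activated markers. The Mfap4 cluster (Mfap4, Lrat, Inmt, Prkg2, Gpm6b) was shallow, with medians of 953 KI and 914.5 WT UMIs. A further cluster led by Hhip, Ccl7, Cyp2e1, Has1 and Cntfr (55 KI and 64 WT cells) held both fibroblast and smooth muscle markers and was left unnamed.

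Among class I members, Dcn was concentrated in a few stromal populations. Dcn stood at 14020.2 CPM in KI and 12177 CPM in WT cells of the Ccl11 cluster. In the Rbp4 cluster Dcn had 2232 KI and 2454 WT CPM, and in the Hhip cluster 3031 KI and 1989 WT CPM. The Slc7a10 cluster, the largest by cells, had 46.9 KI and 39.7 WT CPM of Dcn, more than 20 times below the highest population of its library, a level that free RNA from broken cells can reach. In all, 93.8% of KI and 93.4% of WT Dcn UMIs lay in fibroblast-like cells, and 77.7% of KI and 63.8% of WT Dcn UMIs in the Ccl11 cluster alone.

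Bgn was high in every stromal population. In the Mfap4 cluster Bgn had 4096 KI and 4343 WT CPM, and in the Rbp4 cluster 3321 KI and 3330.0 WT CPM. Smooth muscle-like cells had 1323 KI and 1210.4 WT CPM of Bgn, and pericyte-like cells had 1061 KI and 968 WT CPM. Endothelial-like cells had 75.2 KI and 64.1 WT CPM of Bgn, but a cluster led by Slc6a2, Fabp4, Selp, Cpe and Vwf within them had 440.4 KI and 380.0 WT CPM.

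Aspn, which encodes asporin, a collagen- and TGF-β-binding protein, had its highest level outside the named fibroblasts. The Hhip cluster held 1097 KI and 1177 WT CPM of Aspn, with overlapping intervals. The Ccl11 cluster followed with 478 KI and 348 WT CPM, and smooth muscle-like cells with 454 KI and 331 WT CPM. These levels of the Ccl11 cluster and smooth muscle-like cells overlap within each library. Fibroblast-like cells held 45.6% of the KI and 34.8% of the WT Aspn UMIs.

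Among class II members, Lum was high in few populations, as its chromosomal neighbour Dcn was, but in other proportions. Lum, encoding lumican, had 1346 KI and 601 WT CPM in the Ccl11 cluster and 1252 KI and 999.5 WT CPM in the Hhip cluster. The Rbp4 cluster had 89.2 KI and 58.8 WT CPM. In the Slc7a10 and Cxcl14 clusters, which express the alveolar markers, Lum had 1 UMI in each library and cluster. The shallow Mfap4 cluster had 0 Lum UMIs, with upper limits of 25.6 KI and 24.9 WT CPM. In KI cells the Lum levels of the Ccl11 and Hhip clusters overlap within their intervals, while in WT cells the Hhip cluster was the higher. The Hhip cluster held 14.4% of KI and 29.1% of WT Lum UMIs but 3.41% of KI and 3.38% of WT Dcn UMIs. The Rbp4 cluster held 6.32% of KI and 11.7% of WT Lum UMIs, and 15.5% of KI and 28.4% of WT Dcn UMIs.

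Omd, encoding osteomodulin, a keratan sulfate proteoglycan known from bone, was low throughout. In the Slc7a10 cluster Omd had 65.2 KI and 34.7 WT CPM, and in the Rbp4 cluster 35.1 KI and 25.2 WT CPM. The Ccl11 cluster was highest in KI, at 121 [101, 144] CPM, and had 18.6 [9.27, 33.2] CPM in WT. In the Hhip cluster, where Lum and Aspn were high, Omd had 0 KI and 1 WT UMI. In WT cells the 4 highest populations of Omd, the Slc7a10, Rbp4, Mfap4 and Ccl11 clusters, overlap from each to the next.

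The other class II members also reached the alveolar-type clusters, Fmod at levels below those of its highest clusters. Prelp, whose protein links basement membranes to collagen, was highest in the Slc7a10 cluster with 1218 KI and 1060.2 WT CPM, and pericyte-like cells had 277 KI and 308 WT CPM. Fmod, whose product fibromodulin guides collagen cross-linking, had 50.6 KI and 30.4 WT CPM in the Ccl11 cluster and 48.0 KI and 62.6 WT CPM in the Rbp4 cluster. The Slc7a10 cluster had 24.2 KI and 16.3 WT CPM of Fmod, and the Cxcl14 cluster 16.2 KI and 17.9 WT CPM. Ogn, the class III member encoding osteoglycin, had 1411 KI and 1546 WT CPM in the Slc7a10 cluster and 1449 KI and 1688 WT CPM in the Mfap4 cluster. Podn had 131 KI and 111 WT CPM in the Rbp4 cluster and 113 KI and 145 WT CPM in the Ccl11 cluster.

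**Figure D1:**
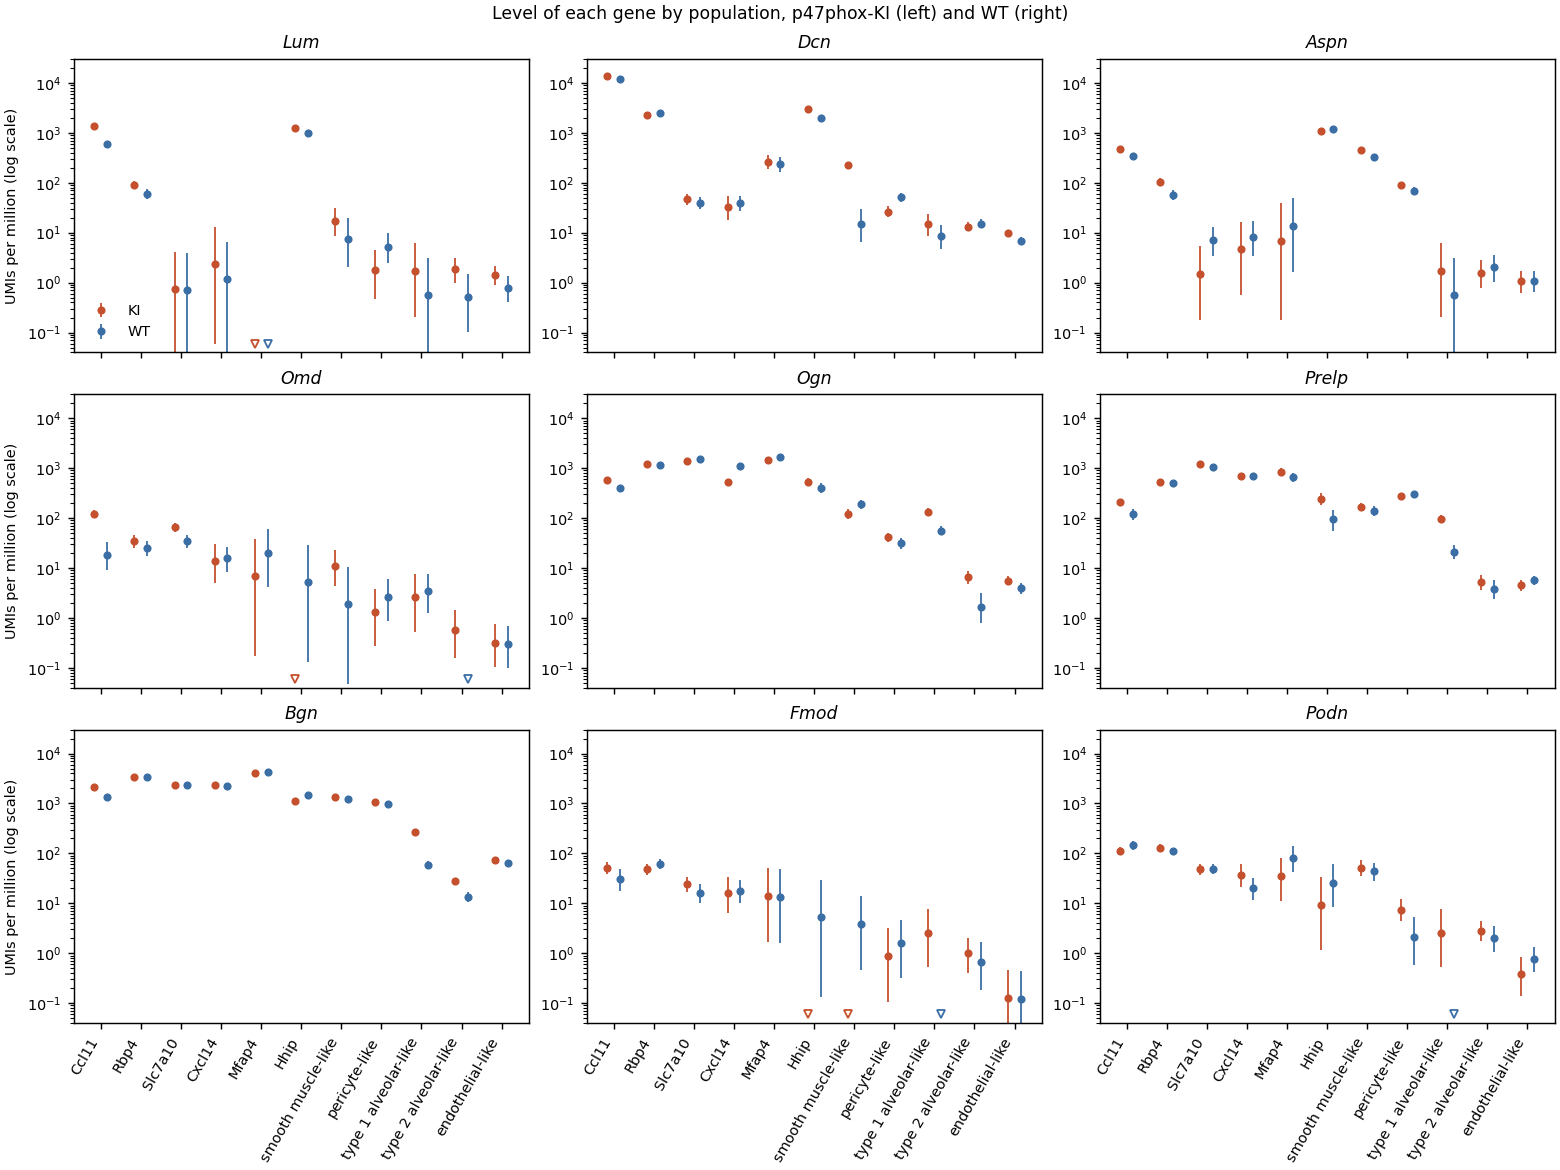
Level of each member by population, in CPM on a log axis, with p47phox-KI in red on the left and WT in blue on the right of each pair; bars are exact 95% Poisson intervals for counting error and open triangles mark 0 UMIs. Lum, Dcn and Aspn stand far higher in the Ccl11 and Hhip clusters than in the Slc7a10 cluster (Lum 1346 KI and 601 WT CPM in the Ccl11 cluster), whereas Ogn, Prelp and Bgn are present in all 5 fibroblast-like clusters, the lowest being Prelp in WT cells of the Ccl11 cluster (119.8 CPM).

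Over 44 sums of a cluster in a library, Pearson's r of log2(CPM + 1) set these patterns in order. Lum had an r of 0.85 with Dcn and 0.82 with Aspn, against 0.43 with Omd and 0.36 with Prelp. Omd had an r of 0.91 with Fmod and 0.81 with its neighbour Ogn, against 0.45 with its other neighbour Aspn. Bgn and Prelp had an r of 0.94. The genes outside the family most like Lum were Penk (0.88), Cilp (0.88), Prg4 (0.87), Thbs2 (0.86) and Ank2 (0.85), and those most like Omd were Abca6 (0.91), Abca9 (0.90), Plcxd3 (0.90), Fgf10 (0.89) and Clec11a (0.88). The sums share library, depth and clustering, so these values describe the libraries only. With a pseudocount of 10 in place of 1, 3 of the 5 genes were the same for Lum and 3 of 5 for Omd.

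Within single cells, Lum was found mostly together with Dcn. Of 166 KI fibroblast-like cells with a Lum UMI, 96.4% also held a Dcn UMI, against 35.3% of all KI fibroblast-like cells, and of 88 such WT cells 97.7% did, against 25.5% of all. An Aspn UMI was found in 48.8% of the KI and 42.0% of the WT cells with a Lum UMI, beside 11.7% of KI and 6.48% of WT fibroblast-like cells in all. Omd was found in 29.5% of KI and 7.95% of WT cells with a Lum UMI, beside 14.6% of KI and 6.48% of WT fibroblast-like cells in all. The Ccl11 cluster held 137 of the 166 KI and 66 of the 88 WT cells with a Lum UMI. A Dcn UMI was found in 93.5% of all KI and 89.3% of all WT cells of that cluster. Among its cells with a Lum UMI the Dcn shares were 98.5% in KI and 100% in WT. Cells with more UMIs hold more of every gene, so these shares are not corrected for depth.

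**Figure D2:**
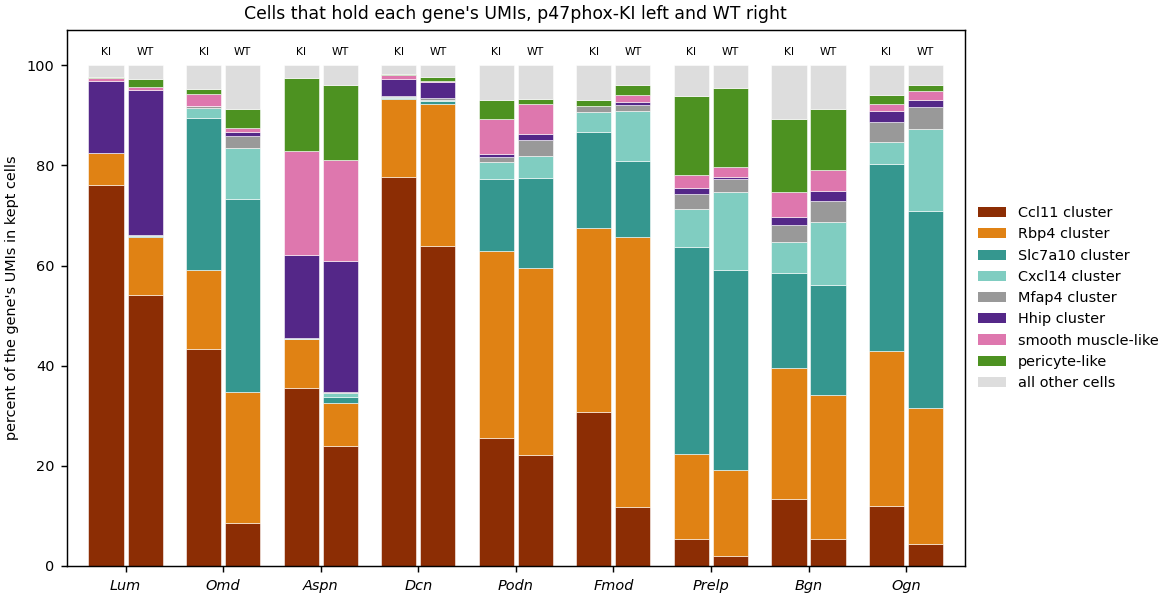
Share of each member's UMIs in kept cells by the population that holds them, in percent, with p47phox-KI as the left and WT as the right bar of each gene. The Ccl11 cluster holds 76.1% of KI and 54.0% of WT Lum UMIs, and 43.3% of KI and 8.66% of WT Omd UMIs.

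The series sets KI beside WT lungs, and in fibroblast-like cells 4 of the 9 members were more than 0.5 higher in KI on the log2 scale, and 0 were lower by as much. Those 4 were Lum (1.81), Omd (1.30), Aspn (1.10) and Dcn (0.75). Since the members were picked with Lum and Omd known to be higher, this count is a description. Of the 12067 genes with at least 20 UMIs in these cells, 18.0% were past 0.5 in the KI direction and 7.53% past 0.5 in the other. The members' median log2 ratio was 0.19, and that of all these genes 0.09.

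Of class I, Dcn had 17728 KI and 10557 WT UMIs in fibroblast-like cells, 4121 and 2456 CPM, a log2 ratio of 0.75 [0.71, 0.78]. With both libraries given equal weights for each cluster, the Dcn ratio was 0.13, and without the Ccl11 cluster it was 0.05. The KI library held 199 and the WT library 122 cells of that Dcn-rich cluster. Over all fibroblast-like cells, erythroid markers summed to 2027 KI and 4.19 WT CPM and airway epithelial markers to 308 KI and 1679 WT CPM, and their part in the ratios was not tested. Aspn had 642 KI and 300 WT UMIs, 149 and 69.8 CPM, a ratio of 1.10 [0.90, 1.30], and 0.50 with the same weights. Bgn was close in both libraries at 2632 KI and 2573 WT CPM, with a ratio of 0.03 [−0.01, 0.07].

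Of class II, Lum had 1529 KI and 435 WT UMIs, 355 and 101 CPM, a ratio of 1.81 [1.66, 1.97]. The Lum ratio was 1.10 with the same cluster weights and 0.78 without the Ccl11 cluster. The cell richest in Lum held 72 of the KI and 18 of the WT UMIs, and without the 1% of cells highest in Lum in each library the ratio was 2.21. Omd had 269 KI and 109 WT UMIs, 62.5 and 25.4 CPM, a ratio of 1.30 [0.98, 1.64]. The Omd ratio was 1.17 with the same weights and 0.72 without the Ccl11 cluster. Fmod had 36.7 KI and 32.6 WT CPM, a ratio of 0.17 [−0.16, 0.51], and Prelp 695 KI and 673 WT CPM, a ratio of 0.05 [−0.03, 0.12].

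The remaining members differed little. Ogn had 1066 KI and 1181 WT CPM, a ratio of −0.15 [−0.21, −0.09], and Podn 87.6 KI and 76.8 WT CPM, a ratio of 0.19 [−0.03, 0.41]. Under the stricter cell filter, with at least 500 genes and at most 5% mitochondrial UMIs per cell, the Podn ratio was 0.62 and the number of members past 0.5 was 5. The share of all genes past 0.5 under that filter is not given here.

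**Figure D3:**
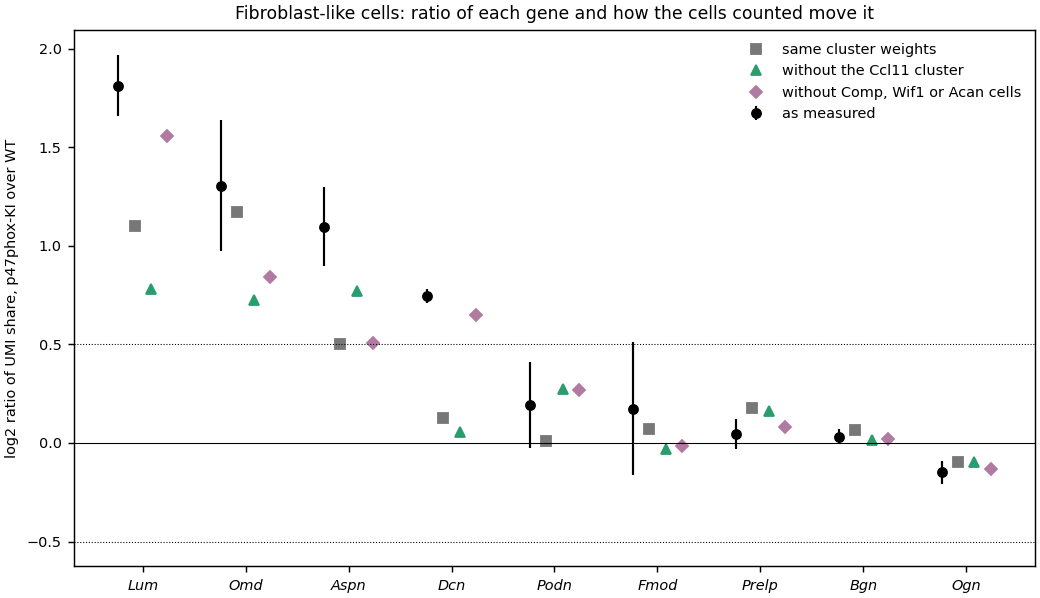
Log2 ratio of p47phox-KI over WT for each member in fibroblast-like cells, with exact 95% counting intervals on the values as measured, beside the ratio with the same cluster weights, without the Ccl11 cluster, and without cells holding a Comp, Wif1 or Acan UMI; dotted lines mark 0.5 in either direction. With the same weights Lum moves from 1.81 to 1.10, Dcn from 0.75 to 0.13 and Omd from 1.30 to 1.17. Without the Ccl11 cluster Lum is at 0.78, Dcn at 0.05 and Omd at 0.72.

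The same 4 genes had a UMI in a larger share of KI cells after each cell was thinned to 1500 UMIs, which kept 894 KI and 959 WT fibroblast-like cells and left out 307 and 476 shallower ones. Lum was found in 12.4% [10.3, 14.8] of KI and 5.63% [4.26, 7.28] of WT cells, beside unthinned shares of 13.8% and 6.13%. Omd was found in 8.05% [6.35, 10.0] of KI and 4.48% [3.26, 5.99] of WT cells (unthinned 14.6% and 6.48%), and Aspn in 8.84% of KI and 4.59% of WT cells. Dcn was found in 35.8% of KI and 28.2% of WT cells. Podn, which was not past 0.5 by ratio, was also found in more KI cells, 11.3% [9.30, 13.6] beside 8.34% [6.67, 10.3]. Fmod (4.36% KI and 3.86% WT) and Prelp (58.5% KI and 57.9% WT) were closer. Ogn was found in fewer KI cells, 65.2% [62.0, 68.3], than WT cells, 75.2% [72.3, 77.9]. Bgn, whose summed level was close in both libraries, was found in 90.04% [87.9, 91.9] of KI and 92.7% [90.9, 94.3] of WT cells. Endothelial-like cells, which should lack Lum and Omd, had Lum in 0.190% of KI and 0.131% of WT cells at the same depth. Omd was in 0.0633% of KI and 0.0788% of WT endothelial-like cells. Dcn was in 1.52% of KI and 1.10% of WT endothelial-like cells, and Bgn in 7.41% of KI and 7.51% of WT. The unthinned median depths of endothelial-like cells were 4081 KI and 3553 WT UMIs.

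Within the Ccl11 cluster, 6 of 9 members were more than 0.5 higher in KI and 0 lower, where 18.2% of 8746 genes were higher and 18.0% lower. Lum had 1410 KI and 356 WT UMIs there, a ratio of 1.16 [1.00, 1.34], and was found in 56.6% of KI and 41.5% of WT cells after thinning. Omd had 127 KI and 11 WT UMIs, a ratio of 2.71 [1.82, 3.75], and 25 of the KI UMIs came from 1 cell. Prelp (0.81), Fmod (0.74 [−0.06, 1.60]), Bgn (0.64) and Ogn (0.54) were also past 0.5, while Aspn (0.46), Dcn (0.20) and Podn (−0.36) were not.

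Cartilage genes also had more KI than WT UMIs in the Ccl11 cluster, and their link to the member ratios was not tested. Comp, a cartilage matrix gene, had 91 KI and 7 WT UMIs in the Ccl11 cluster, the Wnt inhibitor gene Wif1 had 231 KI and 1 WT UMI, and Acan, encoding the cartilage proteoglycan aggrecan, 34 KI and 0 WT UMIs. The Acan UMIs came from 7 cells, and 23 of them from 1 cell. The summed level of the 7 chondrocyte markers was 112 KI and 3.37 WT CPM, with 6 of 7 found in KI and 2 of 7 in WT. Chad, encoding chondroadherin, a leucine-rich cartilage protein of the same family, had 229 KI and 0 WT UMIs there, that is 219 KI CPM, with the WT level limited to 5.06 CPM by 3 counts. Other marker lists also differed there. Erythroid markers summed to 3098 KI and 1.69 WT CPM (5 and 1 of 5 found) and endothelial markers to 496 KI and 1657 WT CPM (10 of 10 in both). Glial markers stood at 775 KI and 722 WT CPM and mesothelial markers at 220 KI and 310 WT CPM, with 6 of 6 of each list found in both libraries. The part of these lists in the result was not tested.

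A Comp, Wif1 or Acan UMI was held by 39 of the KI and 3 of the WT cells of the Ccl11 cluster. The 3 genes were picked with their values known. The 39 KI cells held 72 of the 127 Omd UMIs, 27 of the 53 Fmod UMIs, 210 of the 501 Aspn UMIs, 442 of the 1410 Lum UMIs and 224 of the 229 Chad UMIs. Without such cells in either library, the ratio in the cluster was 1.02 for Lum, 1.73 for Omd, 0.65 for Bgn, 0.58 for Ogn, 0.42 for Prelp, −0.06 for Fmod and −0.09 for Aspn. Over all fibroblast-like cells without them it was 1.56 for Lum, 0.84 for Omd, 0.65 for Dcn and 0.51 for Aspn.

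In the Rbp4 cluster Lum (0.60 [0.17, 1.04]) and Aspn (0.86 [0.44, 1.28]) were past 0.5, so 2 of 9 members, where 22.0% of 9536 genes were higher and 8.83% lower. Aspn had 136 KI and 75 WT UMIs in that cluster, and its WT level lay more than 20 times below the Hhip cluster. Dcn had a ratio of −0.14 [−0.21, −0.06] and Omd of 0.48 [−0.20, 1.17]. In the Slc7a10 cluster Omd (89 KI and 49 WT UMIs, 0.91 [0.39, 1.44]) and Fmod (0.57 [−0.24, 1.40]) were past 0.5, 2 of 7 members measured, where 14.9% of 9749 genes were higher and 11.5% lower. Prelp was at 0.20 [0.10, 0.30] and Ogn at −0.13 [−0.22, −0.04] there.

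In the Cxcl14 cluster, which held 128 KI and 290 WT cells, Ogn was the member that was lower. Ogn had 227 KI and 906 WT UMIs, 525 and 1083 CPM, a ratio of −1.04 [−1.26, −0.83], and was found in 55.6% of KI and 73.3% of WT cells after thinning. At resolution 0.5, where the Cxcl14 and Slc7a10 clusters were matched to 1 joint cluster, the Ogn ratio was −0.20. Of the 6 members measured 1 was lower and 1 higher (Podn, 16 KI and 17 WT UMIs, 0.87 [−0.22, 1.94]), where 14.3% of 7248 genes were lower and 20.9% higher. In the Mfap4 cluster 0 of 4 members measured were past 0.5 in either direction, where 22.8% of 2316 genes were higher and 13.9% lower.

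In the unnamed Hhip cluster, Prelp had 51 KI and 18 WT UMIs, a ratio of 1.36 [0.56, 2.22], and Dcn 644 KI and 382 WT UMIs, a ratio of 0.61 [0.42, 0.79]. These were the 2 of 6 members measured past 0.5, where 20.6% of 3509 genes were higher and 17.0% lower. Lum (0.32 [0.05, 0.60]), Ogn (0.41 [−0.02, 0.85]), Aspn (−0.10 [−0.37, 0.17]) and Bgn (−0.38 [−0.63, −0.12]) were not.

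**Figure D4:**
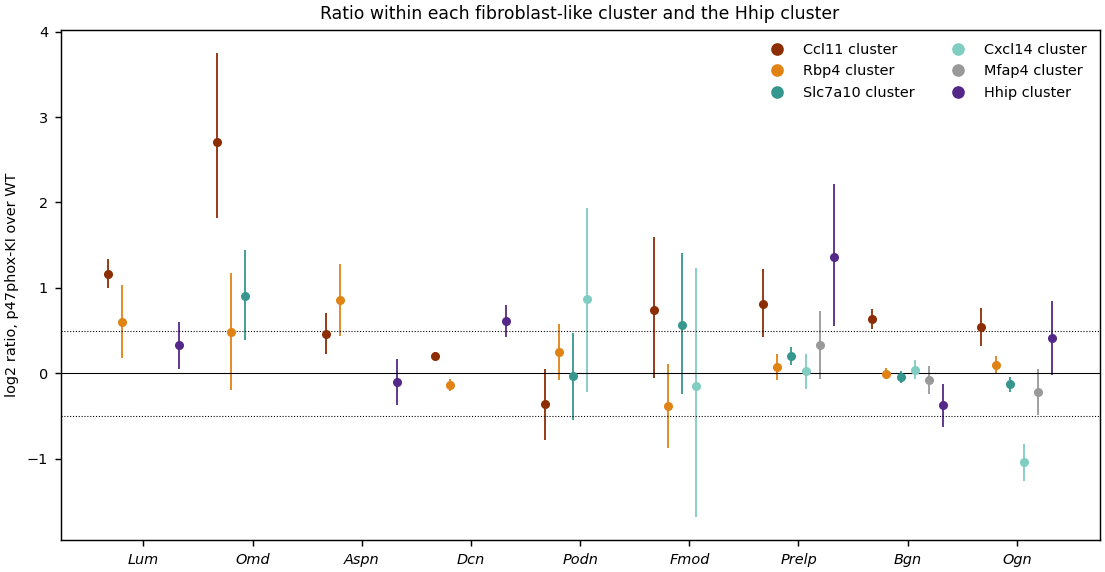
Log2 ratio of p47phox-KI over WT for each member within each of the 5 fibroblast-like clusters and the Hhip cluster, with exact 95% counting intervals; dotted lines mark 0.5 in either direction, and members with under 20 UMIs in a cluster or at a level that free RNA can reach in both libraries are not drawn. Omd in the Ccl11 cluster (2.71) and Ogn in the Cxcl14 cluster (−1.04) lie farthest from 0 in each direction.

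Mural cells held much of the Aspn and some of the Prelp and Bgn. In smooth muscle-like cells (129 KI and 124 WT) Aspn had a ratio of 0.46 [0.18, 0.74], Bgn of 0.13 [−0.02, 0.28] and Ogn, with 78 KI and 99 WT UMIs, of −0.63 [−1.07, −0.19]. Dcn had 144 KI and 8 WT UMIs there, 224.7 and 15.2 CPM, with 65 of the KI UMIs in 1 cell. Both levels lay more than 20 times below the highest population of their library. In KI, endothelial-like cells had 9.75 and pericyte-like cells 26.4 CPM of Dcn. The source of the Dcn UMIs in smooth muscle-like cells was not tested. Of 6 members measured 1, Dcn, was past 0.5 higher and 1, Ogn, lower, where 21.4% of 7230 genes were higher and 10.8% lower. In pericyte-like cells (512 KI and 480 WT) Aspn had a ratio of 0.42 [0.10, 0.75], Bgn of 0.13 [0.04, 0.22] and Prelp of −0.15 [−0.32, 0.01]. Of 6 members measured 1 was past 0.5 higher, Podn with 17 KI and 4 WT UMIs (1.83 [0.22, 3.86]), and it turned to −0.73 under the stricter cell filter. Another was past 0.5 lower, Dcn (−0.96), at levels within reach of free RNA, where 11.9% of 10944 genes were higher and 10.1% lower. The pericyte-like class includes a deep cluster led by Adcy8 (110 KI and 103 WT cells). Endothelial markers summed there to 10799.5 KI and 12916.9 WT CPM and pericyte markers to 1818 KI and 1612 WT CPM. All pericyte-like levels and ratios given here pool this cluster with the one led by Spp1, and its part in them was not tested.

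In type 1 alveolar-like cells (254 KI and 433 WT), 4 of 4 members measured were more than 0.5 higher, where 20.7% of 9336 genes were higher and 10.9% lower. The WT levels of all 4, and the KI level of Dcn, lay within reach of free RNA. Bgn stood at 268 KI and 58.8 WT CPM (2.19 [1.86, 2.52]), Prelp at 97.4 KI and 21.1 WT CPM (2.20 [1.66, 2.78]), Ogn at 135 KI and 56.0 WT CPM (1.27 [0.90, 1.65]) and Dcn at 14.7 KI and 8.57 WT CPM (0.77 [−0.32, 1.88]). The summed level of the 10 fibroblast markers in these cells was 766 KI and 185 WT CPM, with 9 of 10 found in KI and 10 of 10 in WT. Endothelial markers summed to 2321 KI and 987 WT CPM, pericyte markers to 237 KI and 38.8 WT CPM, smooth muscle markers to 93.1 KI and 42.3 WT CPM, and type 2 alveolar markers to 2513 KI and 1078 WT CPM. Without cells holding at least 2 UMIs of Col1a1, Col3a1, Mfap4 or Inmt, a filter added after the values were seen, the ratios were 0.07 for Bgn, −0.11 for Prelp, −0.25 for Ogn and 0.65 for Dcn. With doublets kept, they were 0.10, 0.46, 0.10 and −0.15 in the same order.

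Summed over all type 2 alveolar-like or all endothelial-like cells, the members measured were at levels within reach of free RNA in both libraries. Levels in single clusters can differ from these sums. The Bgn levels of the endothelial-like cluster led by Slc6a2, given above, were beyond that reach in both libraries. That cluster held 3.07% of KI and 2.22% of WT Bgn UMIs, and all endothelial-like cells 7.11% and 7.06%. In type 2 alveolar-like cells 3 of 6 (Ogn, Bgn and Podn) were more than 0.5 higher, where 16.3% of 11532 genes were higher and 4.21% lower. This class holds a shallow cluster led by Slc34a2 with 96 KI and 5 WT cells, which had 63 of the 195 KI Bgn UMIs and 15 of the 46 KI Ogn UMIs of the class. In that cluster the fibroblast markers summed to 1560 KI and 313 WT CPM and the endothelial markers to 8811 KI and 522 WT CPM, and their part in the counts was not tested. In the deeper Lyz1 cluster, with 476 KI and 450 WT cells, the ratio was 0.53 for Bgn, 1.42 for Ogn and 0.53 for Podn. In endothelial-like cells 2 of 6 (Lum and Ogn) were higher, where 11.0% of 12965 genes were higher and 6.50% lower, and Bgn had a ratio of 0.23 [0.11, 0.35]. In a shallow unnamed cluster led by Unc45b, the 1 member measured was Bgn, with 22 KI and 25 WT UMIs (−1.07 [−1.96, −0.18]), where 15.7% of 4027 genes were higher and 18.7% lower.

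Other genes of the family and its pathways were counted in fibroblast-like cells against the same background, 18.0% of genes higher and 7.53% lower. Of 9 other family genes 4 were measured. Chad had 229 KI and 1 WT UMI (7.84 [5.35, 13.15]) and Ecm2, which lies beside Aspn, 313 KI and 191 WT UMIs (0.71 [0.45, 0.98]), while Tsku, for a secreted inhibitor of growth factors, was at −0.45 [−0.96, 0.05] and Chadl, a chondroadherin relative, at 0.32 [−0.87, 1.55]. Of the Chad UMIs in KI, 97.8% lay in cells with a Comp, Wif1 or Acan UMI.

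Of 20 measured genes for the linker and the chondroitin or dermatan sulfate chains, 6 were higher and 1 lower, with a median of 0.22. The chondroitin 4-sulfotransferase genes lay at opposite ends. Chst12 had 41.1 KI and 16.7 WT CPM (1.30 [0.89, 1.71]), and Chst11 12.6 KI and 31.2 WT CPM (−1.31 [−1.80, −0.85]). B4galt7, for a linker galactosyltransferase, followed at 0.76. Xylt1, for an enzyme that starts the chain, had 7.21 KI and 8.37 WT CPM (−0.22 [−0.96, 0.52]). Its relative Xylt2 was at higher levels, 37.7 KI and 28.8 WT CPM (0.38 [0.04, 0.73]).

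Of 7 keratan sulfate synthesis genes measured, 1 was higher and 0 lower, with a median of −0.04. The fucosyltransferase gene Fut8 was at 0.94 [0.55, 1.35] and the galactosyltransferase gene B4galt4 at 0.41, while the sialyltransferase gene St3gal1 was at −0.26 and B4galt1 at −0.19. Of 15 fibrillar collagen and partner genes, 4 were higher and 0 lower, with a median of 0.16. Col3a1 and Col14a1 were both at 0.75, and Col12a1 (−0.03) and Col5a1 (−0.02) were lowest.

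Of 9 measured genes for proteases that process or cut these matrix proteins, 1 was higher and 1 lower, with a median of 0.04. They were aggrecanase genes: Adamts5 had 151 KI and 86.5 WT CPM (0.81 [0.62, 0.99]), and Adamts4 90.4 KI and 149 WT CPM (−0.72 [−0.90, −0.54]). Bmp1, for the procollagen C-proteinase, was at 0.35 and Adamts1, for a further matrix protease, at −0.34. Of 14 measured receptor and ligand genes, 3 were higher and 2 lower, with a median of −0.05. The ATP receptor gene P2rx7 (1.03) and Tgfb3 (0.75) were highest, and Wisp1 (−0.94 [−1.31, −0.58]) and Tgfb2 (−0.70 [−0.98, −0.42]) lowest.

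Of 14 other proteoglycan genes measured, 5 were higher and 2 lower, with a median of 0.16. Among the 10 with at least 100 UMIs, 1 was higher and 2 were lower, with a median of −0.05. Of all 8690 genes with as many UMIs, 11.3% were higher and 5.60% lower. Acan had 34 KI and 0 WT UMIs, 7.90 KI CPM beside a WT limit of 0.698 CPM from 3 counts, and 23 of its UMIs came from 1 cell. Sdc1, for a cell-surface heparan sulfate proteoglycan, was at 0.93 [0.28, 1.60]. Its relative Sdc4 had 730.4 KI and 1303 WT CPM (−0.84 [−0.90, −0.77]), and the glypican gene Gpc1 was at −0.53 [−0.88, −0.18].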

How the data were processed

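Raw UMI counts of single lung cells, deposited by the authors as 1 gene-by-barcode matrix per library, were used. Tools listed in the submitters' processing notes are R 3.5.3, Seurat 2.3.4 and Cell Ranger 2.0, with build mm10; per the file headers, software version 3.0.2 wrote the matrices. No barcode held fewer than 500 UMIs. Whether counting used strand is not given in the sources used here.

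Barcodes with under 200 genes (142 KI, 92 WT) or over 10% mitochondrial UMIs (1921 KI, 2055 WT) were left out. Doublets were scored per library with Scrublet in scanpy 1.11.5, and the top 665 KI (7.29%) and 877 WT (8.37%) barcodes were removed, a rate of 0.8% per 1000 barcodes. The remaining 14371 cells were scaled to 10000 UMIs, and 3003 variable genes, without the family, gave 30 principal components, 15 neighbours and 28 Leiden clusters at resolution 1. Clusters took the class of the highest mean marker fold, with at least 3 markers in at least 20% of cells. This rule was refined after free haemoglobin RNA had named some clusters. They stayed unnamed where other markers or cell cycle genes led or depth was low.

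UMIs were summed per library and population. Ratios have exact conditional binomial, levels exact Poisson and shares exact Clopper-Pearson 95% intervals (scipy 1.17.1), for counting error only. Ratio and interval code was tested on simulated data. A gene was measured with at least 20 UMIs in the population, and populations were compared with at least 100 cells (classes) or 50 cells (clusters) per library. A zero is given with the level of 3 counts for Chad and Acan, and with the upper limit of its interval for Lum and Omd. The members, lists and limits were chosen with earlier results of these data known. Named genes are all 9 members, family genes with at least 20 UMIs, the 2 highest and 2 lowest of each list, and the 5 genes most like Lum and Omd. Xylt2 was added beside its relative Xylt1. Gene positions are from GENCODE M21 (GRCm38) and promoters from RefSeq (GRCm38.p6). Alternatives are given in the closing section.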

Additional observations from a re-analysis of the deposited data

Results flagged for a closer look

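Ogn differed in direction between populations in a way that no test covers, since each genotype is 1 library. Its log2 ratio of KI over WT was 1.27 in type 1 alveolar-like cells and 0.54 in the Ccl11 cluster, but −0.63 in smooth muscle-like cells and −1.04 in the Cxcl14 cluster, each with a counting interval on its own side of 0. The difference between these populations was not tested. Without cells holding at least 2 UMIs of Col1a1, Col3a1, Mfap4 or Inmt, the type 1 alveolar-like ratio was −0.25. Over the alternatives run, the ratio ranged from −0.25 to 1.92 in type 1 alveolar-like cells, from 0.03 to 0.59 in the Ccl11 cluster, from −1.58 to −0.12 in smooth muscle-like cells and from −1.10 to −0.20 in the Cxcl14 cluster. After thinning to 1500 UMIs, Ogn was found in 41.0% of KI and 40.4% of WT cells of the Ccl11 cluster, in 12.9% of KI and 13.4% of WT smooth muscle-like cells and in 55.6% of KI and 73.3% of WT cells of the Cxcl14 cluster.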

How the results depend on the processing

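In fibroblast-like cells, the 4 members more than 0.5 higher in KI became 3 to 5 over the 13 alternatives run, and 0 were lower in each. For the alternatives, here and below, the share of all genes past 0.5 is not given, so these counts of members lack a background. Lum stayed between 0.78 and 2.34, Omd between 0.72 and 1.34 and Aspn between 0.50 and 1.68, while Dcn ranged from 0.05 to 1.05. Of the ratios past 0.5 as measured, these turned sign. Podn in pericyte-like cells was −0.73 under the stricter cell filter, −0.38 at resolution 0.5 and −1.32 with each library clustered alone. In type 1 alveolar-like cells Dcn was −0.15 with doublets kept, and without cells holding at least 2 UMIs of Col1a1, Col3a1, Mfap4 or Inmt, Ogn was −0.25 and Prelp −0.11. In type 2 alveolar-like cells Bgn was −0.044, Ogn −0.14 and Podn −0.0078 with doublets kept, and Ogn −0.21 and Podn −1.08 under the stricter filter. In the Ccl11 cluster Fmod was −0.13 at resolution 0.5, −0.49 with each library clustered alone and −0.059 without cells with a Comp, Wif1 or Acan UMI, and Prelp was −0.057 with each library clustered alone. Dcn in the Hhip cluster was −1.23 with each library clustered alone, where the matched KI cluster shared 0.295 of the combined cells (Jaccard index). Ratios within 0.5 also turned sign in places: in fibroblast-like cells Fmod reached −0.28, Prelp −0.21 and Bgn −0.057, in the Ccl11 cluster Aspn reached −0.091 and Podn 0.64, in the Hhip cluster Lum reached −1.73, Ogn −0.70 and Aspn 0.56, and in pericyte-like cells Ogn reached −1.85; others are not listed. The cause of these turns was not tested. With each library clustered alone, the Ccl11 and Rbp4 clusters were matched to 1 joint cluster (indices for Ccl11 of 0.341 in KI and 0.291 in WT), and 2 members were more than 0.5 higher in place of 6 (3 at resolution 0.5, and 4 without cells with a Comp, Wif1 or Acan UMI), with Lum at 1.13 and Omd at 1.00. The difference in the share of fibroblast-like cells with a UMI, KI minus WT, was 0.029 percentage points for Bgn when thinned to 2500 UMIs and −0.58 for Podn when thinned to 1000. The alternatives that leave out cells by marker UMIs, the Ccl11 cluster or the shallow Mfap4 cluster were chosen after seeing the data. No paired analysis was possible because each genotype has 1 library. Depth limits Omd, Fmod and Podn most: Omd in the WT Ccl11 cluster rests on 11 UMIs.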
